A study of Oryzias melastigma with 12 samples.

Results

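The comparison described here sets whole larvae of marine medaka kept in 20 nM hexabromocyclododecane (HBCD) against larvae kept in the solvent alone. Its members were the 3 arrays labelled 20 nM and the 3 arrays labelled control, 6 of the 12 arrays of the series, read over all 26429 custom probes of the array design. Larvae entered the water no later than 24 hours after hatching and stayed in it for 7 days, their labelled age at sampling, with 90% of the water renewed daily. The 20 nM group received HBCD dissolved in dimethyl sulfoxide (DMSO), and the control group received DMSO without HBCD, in both at 1 part in 30000 of the water. The remaining groups, at 0.2 and 2 nM, had 3 arrays each. Every dish held 100 larvae, and each RNA sample came from a pool of 30 whole larvae, so 1 array stands for 1 pool and individual fish cannot be told apart. Neither a strain nor the sex of the larvae is given in the labels.

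HBCD is a brominated flame retardant that was used mainly in polystyrene foam. It is fat-soluble, persists in the environment and accumulates in aquatic animals, and in fish and rodents it has been studied for effects on liver enzymes, thyroid hormones and oxidative stress. The marine medaka, Oryzias melastigma, lives in salt and brackish water and serves as a test species for marine pollutants. The scanner files name probes only by a design number. No probe could be paired with a gene (0 of 26429), and the files hold no probe sequences. The labelled tissue could therefore not be checked against marker genes, and the account below describes probes by size, direction, signal level and place on the array. In RNA of whole larvae, fewer cells of a type and less RNA per cell cannot be told apart.

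Group and slide were tied in this comparison. All 3 arrays at 20 nM lay on 1 slide, called slide 3 here, together with 2 nM replicate 1. The 3 control arrays lay on slide 1 together with 0.2 nM replicate 3, and the other 4 arrays lay on slide 2. Between 20 nM and control alone, exposure and slide cannot be told apart. The local background around the spots had a median of 33.5 to 34 intensity units on the 20 nM arrays and 37 units on each control array. The 2 nM array on slide 3 had 32.5 units and the 0.2 nM array on slide 1 had 36 units, so this background followed the slide. The 75th percentile of the spot signal was 335 to 368 units at 20 nM and 298 to 317 units in controls, and 11629 to 12117 probes at 20 nM and 11551 to 12819 probes in controls were well above background. Across tested probes, Pearson's r averaged 0.991 between the 20 nM arrays, 0.995 between the controls and 0.988 between 20 nM and control arrays. It averaged 0.993 between the 20 nM arrays and the 2 nM array of the same slide, as a description across probes that are not independent replicates.

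At 20 nM 352 probes differed from control, and most of them were higher. Levels are given as log2 of the processed signal over the 75th percentile of the same array, so a level of 0 is the signal of that percentile and a difference of 1 is a doubling. The test covered the 11910 probes that stood well above background in all 3 arrays of 1 or more of the 4 groups. Of these, 297 were called higher (2.49%) and 55 lower (0.462%), together 2.96%, by limma at a Benjamini-Hochberg adjusted p under 0.05 in a fit over all 12 arrays. Without adjustment, 2433 probes had a p under 0.05. Sizes were measured on both sides for the 179 rises and 47 falls that were well above background on all 6 arrays. These rises had a median of 1.74-fold and ranged from 1.33-fold to 4.25-fold, and these falls had a median of 1.46-fold lower and ranged from 1.27-fold to 2.05-fold lower. Of the other rises, 72 were well above background on 1 or 2 control arrays, and 46 on no control array, so that their difference has only a lower bound: the lowest signal well above background on each array, or the probe's own value where higher, stands for the dim group. The 46 were at least 1.98-fold higher at the median and at least 3.46-fold higher at most. Such probes entered the test through the group where they were high. The fitted median over all 297 rises was 0.98 on the log2 scale, and 0.92 with the 46 at their bound. For the 55 falls, of which 5 were at a bound, both medians gave 0.57 as the size of the fall. With those probes at their bounds, 119 of the rises and 2 of the falls reached 2-fold.

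Over all tested probes the balance ran the other way. Relative to the 75th percentile, the difference was above 0 for 5271 probes (44.3%) and below 0 for 6639, with a median of -0.04, quartiles of -0.19 and 0.16, and 5th and 95th percentiles of -0.42 and 0.72. The median depends on the scaling, at -0.18 with arrays scaled to their median and 0.22 with arrays scaled to the spike-in controls, where 702 probes were called higher and 3 lower. The upper tail was thus longer than the lower one: 288 tested probes were at least 2-fold higher at 20 nM (2.42% of those tested) and 48 at least 2-fold lower (0.403%) by their fitted values, and 231 and 32 with undetected groups at their bound. All 3 arrays at 20 nM lay above all 3 controls for 2039 probes (17.1%) and below them for 2445 (20.5%), together 37.6% of the tested probes, and every called probe was among these. Spread was larger at 20 nM, with a median SD between arrays of 0.157 at 20 nM and 0.0896 in controls (n = 3 each), and the SD was higher at 20 nM for 72.2% of the tested probes. For the 297 rises this order was turned, with a median SD of 0.111 at 20 nM and 0.164 in controls, and for the 55 falls it was 0.126 at 20 nM and 0.0920 in controls.

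The count depended on single arrays and on the fit. It was 175, 144 and 66 without 20 nM replicates 1, 2 and 3, and 121, 50 and 140 without control replicates 1, 2 and 3. Without 2 nM replicate 1, which shared the slide of the 20 nM arrays, it was 548. With array weights 1281 probes were called higher and 1706 lower, which turns the balance, and with the 20 nM and control arrays alone in the fit 874 were called higher and 390 lower. A separate mean for each group on each slide gave 1099 calls (9.23%), 722 higher and 377 lower. No probe passed with slide as a fixed block (0 of 11910 in limma, 740 at an unadjusted p under 0.05) or as a random block (0). The fixed block also cost precision, with a median SE of 0.27 against 0.14 without it. Its median log2 difference was 0.50 over the 297 rises and -0.36 over the 55 falls, against 0.98 and -0.57 in the fit that called them.

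The rises lay mostly among dim probes. Tested probes were divided into 5 groups of 2382 by their mean level over all 12 arrays. In the dimmest group 137 probes were called higher and 11 lower (6.21% called), in the next 57 and 13 (2.94%), then 41 and 10 (2.14%), 35 and 9 (1.85%), and in the brightest 27 and 12 (1.64%). Of the 297 rises, 194 (65.3%) were in the 2 dimmest groups, as were 24 of the 55 falls (43.6%), together 61.9% of the calls. This share was 25.4% of 197 calls with normexp background correction after stray local backgrounds were replaced, and 8.45% of 71 calls without a filter on dim probes, where the level groups span all 26429 probes. The rises had a median signal of 112 intensity units at 20 nM and 50.1 units in controls, against 309 units at 20 nM and 266 units in controls over all tested probes. The falls had a median signal of 202 units at 20 nM and 258 units in controls. All differences were wider among dim probes: the quartiles were -0.22 and 0.49 in the dimmest group and -0.23 and 0.03 in the brightest, and the median SE of the fit was 0.23 in the dimmest group and 0.12 in the brightest.

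**Figure D1:**
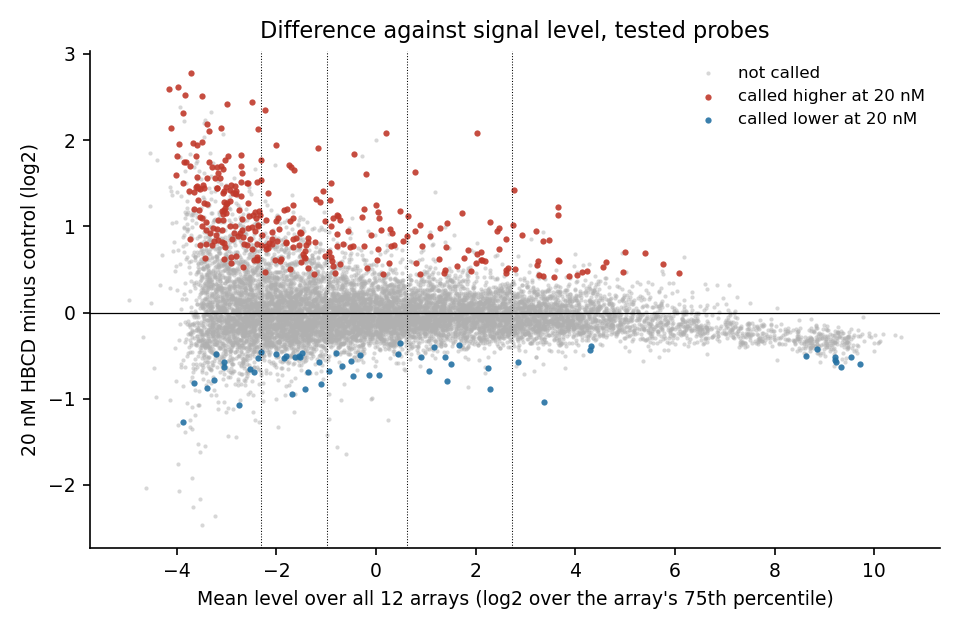
Each point is 1 of the 11910 tested probes, with its mean level over all 12 arrays (log2 over the array's 75th percentile) on the horizontal axis and its difference, 20 nM minus control (log2), on the vertical axis. Red marks the 297 called rises and blue the 55 called falls, dotted lines separate the 5 level groups, and the rises crowd at the left, where 194 of them lie in the 2 dimmest groups.

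The median difference was highest in the dimmest group and lowest in the brightest. It was 0.06 in the dimmest group, then -0.02, -0.03 and -0.03, with little change between these 3, and -0.11 in the brightest. In the brightest group 786 probes had all 20 nM arrays below all controls and 179 had them above, while in the dimmest group 319 lay below and 658 above. A slide difference could be estimated from the 6 arrays at 0.2 and 2 nM, none of which is a 20 nM or control array: slide 3 minus slide 2 at 2 nM plus slide 2 minus slide 1 at 0.2 nM. Its medians in the same level groups were 0.21, 0.08, -0.02, -0.09 and -0.17, so it fell at each step, and its ends lay on the same sides as those of the difference between 20 nM and control. A trend with level was also present within a slide. For 2 nM minus 0.2 nM on slide 2 the medians rose, at -0.103, -0.080, -0.015, 0.064 and 0.092. These slide 2 arrays enter the slide difference with the opposite sign. Medians lay between -0.043 and -0.013 for 20 nM minus 2 nM on slide 3. They lay between 8.5e-05 and 0.008 for 0.2 nM minus control on slide 1. The cause of these trends was not tested.

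**Figure D2:**
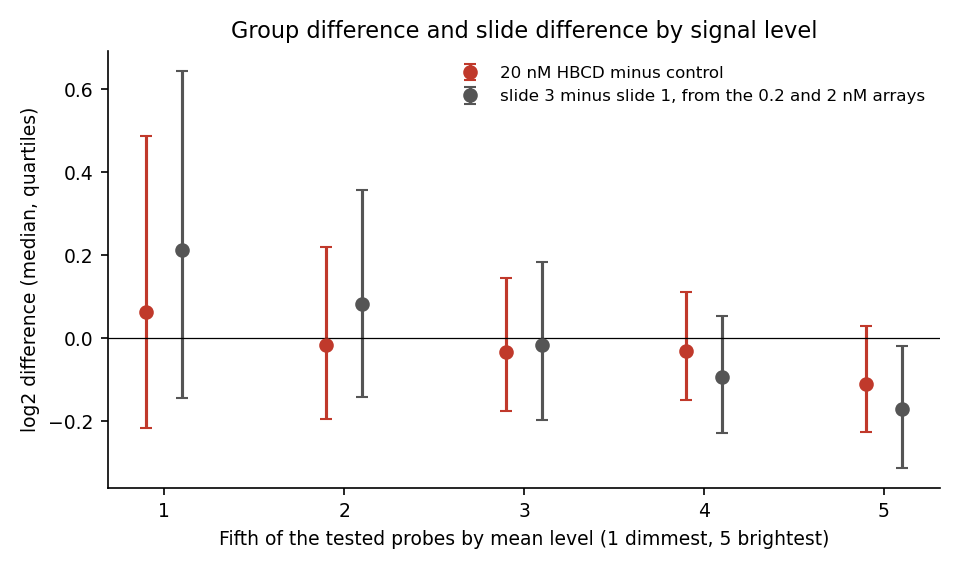
For each of 5 equal groups of tested probes by mean level, from dimmest (1) to brightest (5), points give the median log2 difference and bars the quartiles, in red for 20 nM minus control and in grey for slide 3 minus slide 1 estimated from the 0.2 and 2 nM arrays. The red points lie at 0.06 in the dimmest and -0.11 in the brightest group and are nearly level in between, while the grey points go down at each step, with 0.21 and -0.17 at the ends.

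Near the detection limit the 2 directions were close in number. Over all 26429 probes, 10663 were well above background on all 6 arrays and 12101 on none of them. On all 3 arrays at 20 nM and no control array 75 probes were well above background, and on no array at 20 nM and all 3 control arrays 67 were. For those 75 the median signal was 47.1 intensity units at 20 nM and 15.2 units in controls, and for those 67 it was 26.3 units at 20 nM and 36.5 units in controls. These differences are lower bounds as above. The 75 probes were at least 1.97-fold higher at 20 nM at the median and at least 3.46-fold higher at most, and 39 of them were called. Among the 67, the bound exceeded 1 for 66, with a median of at least 1.37-fold lower at 20 nM, and 4 were called, the largest of these at least 1.65-fold lower. Over all tested probes 2.49% were called higher and 0.462% lower. Both sets were chosen by detection in 1 group, which largely set their direction, so these counts of calls do not test it. With the slide difference from the 0.2 and 2 nM arrays, 70 of the 75 (93.3%) had the same direction, and 33 of the 67 (49.3%). The order of the 2 counts turned with single arrays. Without control replicates 1, 2 and 3 the probes only at 20 nM numbered 223, 79 and 82, and those only in control 79, 202 and 131. Without 20 nM replicates 1, 2 and 3 the first were 102, 131 and 112, and the second 126, 93 and 103.

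Of the tested probes, 2215 were printed as 5 spots per array and 9688 once. Over these 5 spots the median SD within an array was 0.0822 at 20 nM and 0.0823 in controls. The median SD between arrays was 0.136 at 20 nM and 0.0749 in controls for the same probes. The first is between single spots and the second between means over the spots of a probe, so the 2 are not directly comparable. Of probes printed 5 times, 34 were called higher and 7 lower (1.85% called), against 3.21% of those printed once, and their median level was higher (0.12 against -0.31). All spots gave the sign of the probe's own difference for 27 of the 34 rises and for all 7 falls. The same held for 1464 of the 2215 (66.1%), so agreement of all spots was common. The 7 tested probes printed 100 times had differences between -0.36 and 0.26.

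The 2 largest rises and 2 largest falls among called probes printed 5 times, well above background on all 6 arrays, are given with each array. Probe CUST_447_PI414333748 had levels of -0.21, -0.33 and -0.31 on the 20 nM arrays and -2.30, -2.37 and -1.91 on the control arrays. The groups lay well apart, with means of -0.28 ± 0.06 at 20 nM and -2.19 ± 0.25 in controls (SD, n = 3 each), a log2 difference of 1.91 (3.76-fold higher, SE 0.33, limma adjusted p = 0.0170). In every one of its 5 spots the difference was positive, from 1.30 to 2.60, and the largest came from a spot that read as low as -3.77 in a control array. The smallest came from row 219 of the array. The other spots lay in rows 347 to 454, within the part of the array where called rises were more frequent, as given below. Outside the pair, the 2 nM array on slide 3 read -0.16, like the 20 nM arrays, and the 0.2 nM array on slide 1 read -1.93, like the controls. On slide 2 the 2 nM arrays read -0.97 and -0.83. The 0.2 nM arrays there differed widely, at -0.62 for replicate 1 and -2.02 for replicate 2, whose SD over spots was 1.10. With slide as a fixed block its log2 difference was 0.56 (SE 0.71, limma adjusted p = 0.965). The slide difference from the 0.2 and 2 nM arrays was 1.35 (SE 0.64). The blocked value is the group difference less this slide difference, so the 2 are not separate results.

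Probe CUST_3906_PI414333748 had levels of -0.99, -0.92 and -0.83 on the 20 nM arrays and -2.79, -2.82 and -2.27 on the control arrays. It was 3.28-fold higher at 20 nM (log2 difference 1.71, SE 0.31, limma adjusted p = 0.0182). Its spots differed by 1.19 to 2.27, and the largest came from a spot that read as low as -4.26 in a control array. The spot in row 98 gave 1.96, and the others lay in rows 402 to 527. Of the other arrays, 2 nM replicate 1 on slide 3 read -1.12, with an SD over its spots of 1.01, and 0.2 nM replicate 3 on slide 1 read -2.38. Slide 2 spanned -1.92 to -1.09, overlapping slide 3. The slide difference from the 0.2 and 2 nM arrays was 1.68 (SE 0.44). With slide as a fixed block the log2 difference was 0.03 (SE 0.49, limma adjusted p = 0.994), again the group difference less that slide difference.

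Among the falls, probe CUST_581_PI414333748 had levels of 1.76, 2.11 and 1.61 on the 20 nM arrays and 2.66, 2.79 and 2.69 on the control arrays. It was 1.85-fold lower at 20 nM (log2 difference -0.89, SE 0.15, limma adjusted p = 0.0170), and its 5 spots agreed closely, from -0.91 to -0.86. Slide 3 held the lower values at 2 nM too, with 2.08 for 2 nM replicate 1 against 2.32 and 2.41 for the 2 nM arrays on slide 2. The blocked log2 difference was -0.21 (SE 0.29, limma adjusted p = 0.968).

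Probe CUST_3850_PI414333748 had levels of -0.17, -0.03 and -0.47 on the 20 nM arrays and 0.36, 0.61 and 0.54 on the control arrays. It was 1.65-fold lower at 20 nM (log2 difference -0.73, SE 0.13, limma adjusted p = 0.0191). This probe sorted by concentration on slide 2, where both 2 nM arrays were low (-0.27 and -0.19) and both 0.2 nM arrays high (0.31 and 0.23), a step of -0.50 (SE 0.15, limma adjusted p = 0.162). On slide 3 the order was turned. There 2 nM replicate 1 read -0.52, below all 20 nM arrays, and 20 nM minus 2 nM was 0.30. The 0.2 nM array on slide 1 read 0.36, like the lowest control. For this probe the blocked log2 difference was -0.34 (SE 0.28, limma adjusted p = 0.924), so the step on slide 2 and the whole blocked difference both missed the threshold. Of the 4 named probes, all lost the call without 20 nM replicate 3 or control replicate 2, and 3 without 20 nM replicate 1 or control replicate 1. Without 20 nM replicate 2 both rises lost it and without control replicate 3 both falls, with limma adjusted p up to 0.0954 over these fits.

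**Figure D3:**
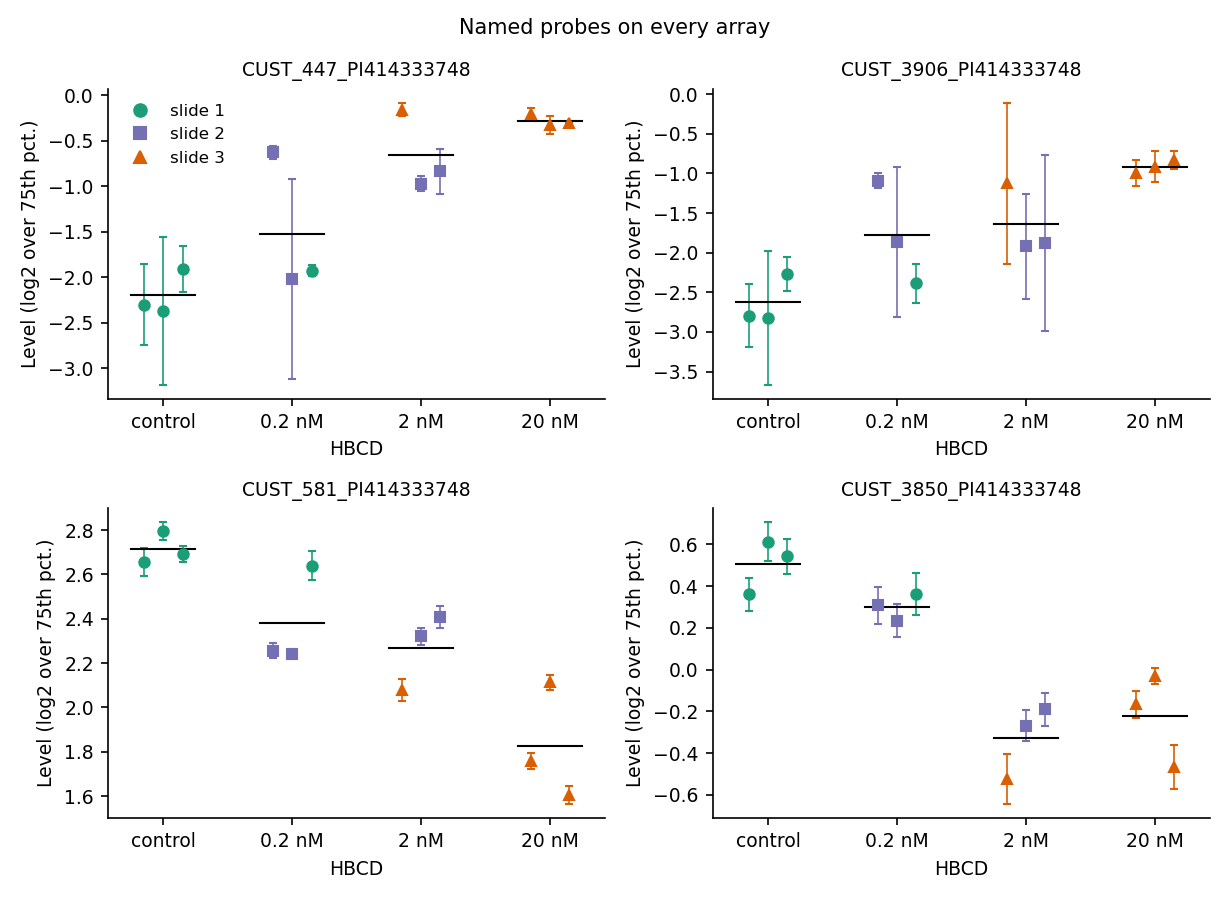
Each panel gives 1 named probe, with HBCD concentration on the horizontal axis and level (log2 over the array's 75th percentile) on the vertical axis. Points are arrays, shaped and coloured by slide, bars are the SD over the probe's spots on that array and lines are group means. For CUST_447_PI414333748 and CUST_3906_PI414333748 all slide 3 arrays lie above all slide 1 arrays, with slide 2 overlapping 1 of them, while for CUST_3850_PI414333748 all 2 and 20 nM arrays lie below all 0.2 nM and control arrays.

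The called probes as a whole were set beside that slide difference. Over 11909 tested probes with both values, the difference between 20 nM and control correlated with the slide difference at r = 0.364, a description across probes, and had the same sign for 65.0% of them. Among the called probes the sign was the same for 300 of 352 (85.2%): 254 of the 297 rises (85.5%) and 46 of the 55 falls (83.6%), against 62.3% of all probes above 0 and 67.2% of all probes below 0. With arrays scaled to their median the called share was 79.2% and the share of all tested probes 77.1%, so under that scaling the calls lay close to the rest. The median slide difference was 0.47 over the rises, whose median group difference was 0.98, and -0.19 over the falls, whose median group difference was -0.57. Probes were called on the group difference, in a fit whose spread also holds slide differences, so these medians do not give a slide share. Probe by probe, the difference with slide as a fixed block is the group difference less this slide difference, so it is not a separate result. The slide difference rests on 2 single arrays (2 nM replicate 1 and 0.2 nM replicate 3) and on the 4 arrays of slide 2, with a median SE of 0.25. It would also hold any difference between the pools on those arrays. The slide 2 arrays were unlike in signal, with 75th percentiles of 443 and 478 units at 0.2 nM and 334 and 293 units at 2 nM. The part of the called differences that comes from the slides was not tested.

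**Figure D4:**
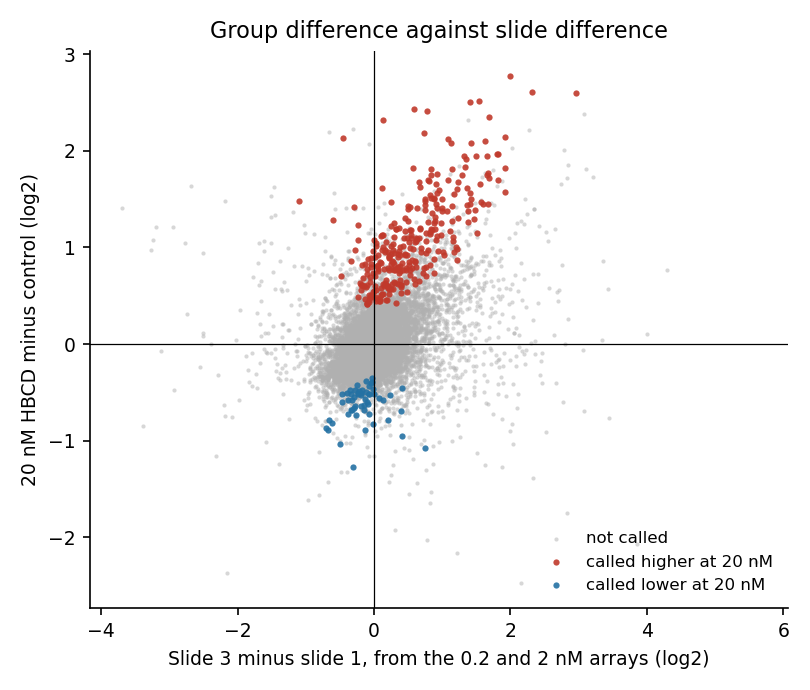
Each point is a tested probe, with the slide difference estimated from the 0.2 and 2 nM arrays (slide 3 minus slide 1, log2) on the horizontal axis and 20 nM minus control (log2) on the vertical axis. Called rises (red) fall mostly in the upper right quadrant (254 of 297) and called falls (blue) mostly in the lower left (46 of 55).

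Few probes were called within a slide. On slide 3 the 3 arrays at 20 nM were set against the 2 nM array: 10 of 11909 probes were called (0.084%), all 10 lower at 20 nM, with log2 differences of -1.12 to -2.38. None of these 10 was called between 20 nM and control (0), where their differences lay between -0.54 and 0.10, and all 10 rest on a single 2 nM array. Without 20 nM replicate 1 the contrast gave 19 calls, 5 higher and 14 lower. The median absolute difference was 0.110 in that contrast (median SE 0.17), 0.113 for 0.2 nM minus control on slide 1 (median SE 0.17), 0.178 for 2 nM minus 0.2 nM on slide 2 (median SE 0.14) and 0.180 for 20 nM minus control (median SE 0.14). Without adjustment 412, 492 and 2193 probes had a p under 0.05 in the 3 within-slide contrasts in that order. These contrasts come from the fit with a separate mean for each group on each slide. In that fit 20 nM minus control had 3479 such probes (median SE 0.12), against 2433 in the fit by group alone. Slide 2 minus slide 1 within the 0.2 nM group had a median absolute difference of 0.198 (median SE 0.18). That was near the 0.178 for 2 nM minus 0.2 nM on slide 2. Between slides 3 and 2 within the 2 nM group the median absolute difference was 0.241 (median SE 0.18). There 959 probes were called (8.05%), 822 of them higher on slide 3. Slide 2 minus slide 1 within the 0.2 nM group gave 429 calls (3.6%), 387 of them lower on slide 2. On slide 2, 4 probes (0.0336%) were called for 2 nM minus 0.2 nM. By size, 121 probes were at least 2-fold higher and 47 at least 2-fold lower for 0.2 nM minus control on slide 1, where 0.2 nM is a single array. These numbers were 57 and 100 for 20 nM minus 2 nM on slide 3, and 50 and 126 for 2 nM minus 0.2 nM on slide 2. The slide difference summed from both groups, with its larger SE, gave 18 calls (0.151%).

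Called rises were not spread evenly over the array surface. Each array has 532 rows of spots, and probe numbers were spread alike over them, with a median number of 14731 in rows 267 to 532 and 14579 in rows 1 to 266. Among tested probes printed once, 228 of 4907 in rows 267 to 532 were called higher (4.65%), and 35 of 4781 in rows 1 to 266 (0.732%). Called falls were even, with 23 (0.469%) and 25 (0.523%). The step was sharp: 58 of 985 probes were called higher in rows 267 to 319 and 11 of 997 in the rows just above, 213 to 266. It held without regard to the test, since 4.40% of the probes in rows 267 to 532 and 1.17% in rows 1 to 266 were at least 2-fold higher at 20 nM, and the median SE was 0.15 in both. By that measure falls were not even: 0.204% in rows 267 to 532 and 0.774% in rows 1 to 266 were at least 2-fold lower.

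In the same rows the control arrays held more low values. Between 1.51% and 2.30% of the once-printed probes in rows 267 to 532 of the 3 control arrays were at least 2-fold below their mean over all 12 arrays, against 0.335% to 0.481% in rows 1 to 266. On the 20 nM arrays these shares were 0.163% to 0.897% in rows 267 to 532 and 0.440% to 0.962% in rows 1 to 266. The 0.2 nM array on the slide of the controls had 0.306% and 0.356%, so the pattern did not extend to the whole slide. On slide 2 the shares in rows 267 to 532 and 1 to 266 were 1.47% and 0.900% for 0.2 nM replicate 2. The other slide 2 arrays had fewer low values in rows 267 to 532. Their shares were 0.856% and 1.28% for 0.2 nM replicate 1, 0.958% and 2.05% for 2 nM replicate 2, and 0.877% and 1.76% for 2 nM replicate 3. An excess in rows 267 to 532 was thus largest on the 3 control arrays, with smaller ones on 0.2 nM replicate 2 and 20 nM replicate 2 (0.897% and 0.440%). In the slide difference from the 0.2 and 2 nM arrays, probes at least 2-fold higher were as frequent in rows 267 to 532 (4.83%) as in rows 1 to 266 (4.96%). For 0.2 nM minus control on slide 1 these shares were 1.55% and 0.941%. For 32 called rises printed 5 times with spots in both parts, the median difference was 0.92 over the spots in rows 267 to 532 and 0.65 over those in rows 1 to 266. Within a probe the gap was smaller, with a median of 0.12, and it was positive for 19 of the 32 (59.4%), against 50.8% of the 2067 tested probes with spots in both parts. Among probes printed 5 times in the 2 dimmest level groups, the gap was positive for 472 of 745 (63.4%), with a median of 0.06. The called rises thus had a lower share of positive gaps than these dim probes but a larger median gap, and they were not matched for level. The part of row position in the called rises was not tested.

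**Figure D5:**
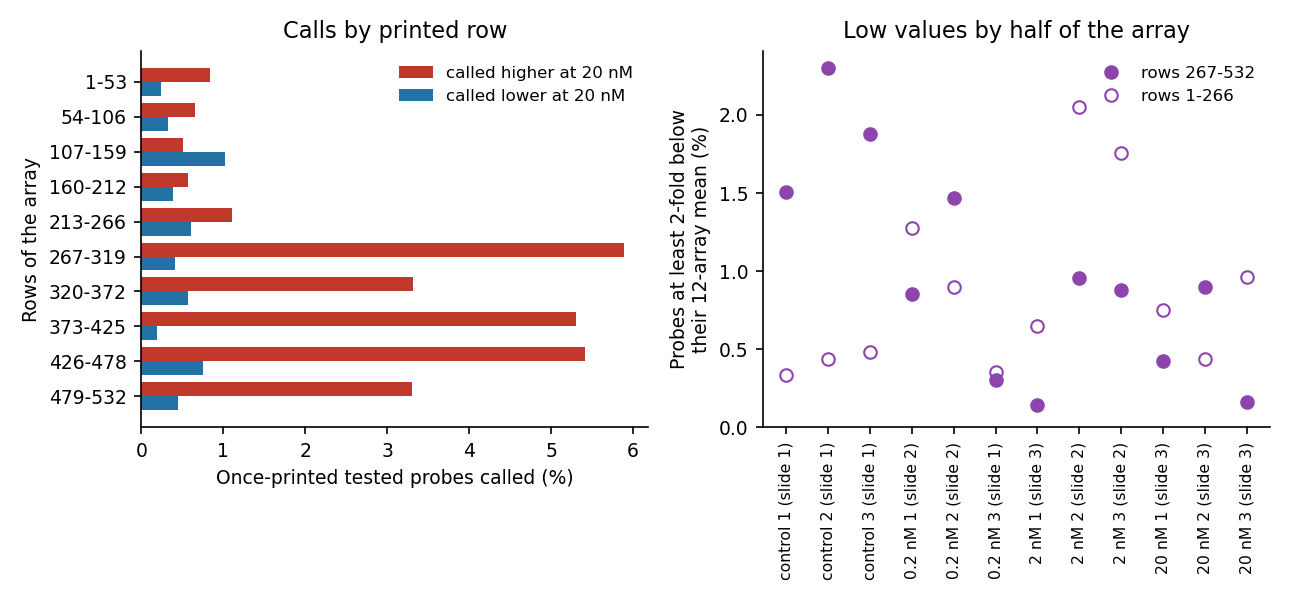
At left, for 10 bands of array rows from first (top) to last, bars give the percent of once-printed tested probes called higher (red) or lower (blue) at 20 nM, with rises near 1% or below down to row 212 and above 3% from row 267 on. At right, for each array, points give the percent of once-printed tested probes at least 2-fold below their mean over all 12 arrays, filled for rows 267 to 532 and open for rows 1 to 266, and the filled points are highest on the 3 control arrays, at 1.51% to 2.30%.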

How the data were processed

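RNA of pooled larvae was hybridised with Cy3 to Agilent custom arrays of 43277 spots for 26429 probes. The authors deposited spot intensities on a linear scale, background-subtracted and detrended within each array by Agilent Feature Extraction 10.7.3.1, per the file headers (version 10.7 per the submitters' processing notes), with no normalization between arrays. Scanner marks (other than intensities) are 0 or 1. A further table deposited by the authors holds log2 values with column medians of 4.34, correlated with log2 processed intensity of the same array at r of at least 0.999, so uncentred and of the same direction. No source used here gives its normalization method.

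Log2 processed intensity minus the array's 75th percentile was used. Spots marked as outliers were left out (507 to 729 per array), and spots of a probe averaged. A probe was well above background with a share over 0.5 of its spots so marked. No spot was saturated (0). Groups were compared with limma 3.58.1 (R 4.3.3), as checked on simulated data. P-values measure the spread between pools within groups, 3 per group, from replicate dishes per the labels. In the fit by group alone, that spread also holds slide differences, since each group outside the compared pair was split between slides. Each group of the pair lay on a single slide, so these p-values do not account for a slide difference between them. The number of arrays limits precision. Slides come from the headers and each had its own scan. Named probes were the 2 largest rises and falls past the threshold among probes printed 5 times, detected on all 6 arrays with groups apart. Members and tests were chosen with earlier results of these data known. Array rows, spike-in scaling, cyclic loess, repaired normexp and the percentile over kept spots were added after the data were seen. Normexp used median spot signals, since the files hold no mean signals.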

Additional observations from a re-analysis of the deposited data

How the results depend on the processing

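The 352 calls became 333 with the 75th percentile over detected probes, 340 with quantile normalization, 341 with the deposited log2 table, 371 with the percentile over kept spots, 378 with cyclic loess and 355 with a variance prior following signal. They became 207 with scaling to the median, 71 without a filter on dim probes, 212 with probes detected on all 12 arrays, 1 with the planned normexp and 197 after stray local backgrounds were replaced, 705 with scaling to spike-ins (702 higher, 3 lower), 2987 with array weights, 1264 with the pair alone, and 0 with slide as a fixed or random block. Leaving out 1 array gave 50 to 548. Scaling to the median put the median difference of all tested probes at -0.18 and scaling to spike-ins at 0.22, against -0.04. The share of calls in the 2 dimmest level groups (61.9%) was 69.6% with median scaling, 0% with normexp, 25.4% with replaced backgrounds, 8.45% without a filter, 52.8% with probes detected on all 12 arrays, 67.9% with spike-ins and 50% to 62.9% without 1 array. The share with the sign of the slide difference (85.2%) was 79.2%, 0%, 77.7% and 80.3% under the first 4 of these (against 77.1% of all tested probes with median scaling), and 71.2% to 82.9% without 1 array. The share of once-printed rises in rows 267 to 532 (86.7%) was 100% with normexp (1 probe), 80.7% with spike-ins, 69.0% with array weights, 66.9% with the pair alone and 70.9% to 90.2% without 1 array. The 10 calls on slide 3 became 0 with normexp, 18 with replaced backgrounds, 203 without a filter (199 lower) and 10 to 19 without 1 array. Probes detected in 1 group only (142) numbered 213 to 302 without 1 array, where the criterion asks for fewer arrays. The cause of the other changes was not tested. The 4 named probes kept their direction in all settings and lost the call in 36 of 116 recomputed values, among them all 4 without a filter (limma adjusted p 0.0613 to 0.0666). The labels give each group replicate numbers 1 to 3. With these as a replicate block 315 probes were called (264 higher, 51 lower). Deviations of same-numbered 20 nM and control arrays correlated at 0.141, -0.0484 and 0.0331. The best match had the same number for replicates 1 and 3 but not for replicate 2. Such weak values cannot settle whether the numbers pair the arrays. Signal near background limits the dimmest probes.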

Other observations

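The arrays also carry 10 spike-in control sequences (E1A), printed as 32 spots each, which were not part of the comparison. Of these, 8 were well above background on all 6 arrays, and all 8 were lower on the 20 nM arrays relative to the 75th percentile, with 20 nM and control arrays apart for each. Their differences ran from -0.45 to -0.15 on the log2 scale, with a median of -0.24. For the same 8 spike-ins the slide difference from the 0.2 and 2 nM arrays ran from -0.60 to 0.07, so its direction was mixed. The brightest had a level of 10.11 ± 0.04 at 20 nM and 10.43 ± 0.05 in controls, and the dimmest of the 8 had -2.16 ± 0.10 at 20 nM and -1.94 ± 0.05 in controls (SD, n = 3 each). Before scaling, their differences ran from -0.25 to 0.06. No source used here gives the amount of spike-in added to each RNA sample.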
